A study of Mus musculus with 4 samples.

Results

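Splicing factors and hnRNP proteins were examined in long-term haematopoietic stem cells (HSCs) of Sin3B knockout (KO) and wild-type (WT) mice. The genes were taken by name from the deposited RNA sequencing table: symbols that begin with Srsf or Sfrs and a number (SR proteins), Hnrnp (heterogeneous nuclear ribonucleoproteins), Sf3a or Sf3b (the SF3 complexes of the U2 particle), or Snrp (proteins of the small nuclear ribonucleoproteins, snRNPs). The rule found 44 of the 9244 genes with library values, which were 11 SR protein, 17 hnRNP, 8 SF3 and 8 Snrp genes. All 44 passed the filter on low values, and the rule uses names alone, although it was proposed with earlier results of these data known.

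The Sin3B KO group and the WT group each had 2 libraries from C57BL/6 mice aged 8 to 12 weeks. Cells of both were sorted for the same surface phenotype, lineage-negative cells with Sca-1 and Kit (LSK) that lack CD34 and Flk2. The labels leave out how the Sin3b allele was made, in which cells it was deleted, and whether a library is 1 animal or a pool. The error behind each p-value is therefore that of the libraries at hand and may be technical in part or whole. Sin3B belongs to corepressor complexes with histone deacetylases that silence genes, and the study sought genes that it regulates in HSCs. Values below are normalised read counts, and where a pair of values is given for a genotype, the library titled replicate 1 comes first. The labels number the second library of each genotype in different ways, as 2 in the title and as 3 in the description, and the title's number is used here.

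Splicing removes introns from nascent RNA. The Sm proteins form a ring on most spliceosomal snRNAs, though not on U6. The U1 and U2 snRNPs mark the splice sites and the branch point. SF3a and SF3b belong to the U2 snRNP, which holds the branch point. SR proteins bind exonic RNA and mostly promote the use of nearby splice sites, while many hnRNPs bind introns or exons and often repress it. In human blood, SRSF2 and SF3B1 are among the genes most often mutated in myelodysplastic syndromes, which arise in HSCs. Many SR protein and hnRNP genes limit their own output through alternative exons or retained introns that send the RNA to nonsense-mediated decay, and gene counts do not separate such RNAs from those that are translated.

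Because Sin3 complexes are brought to promoters by DNA-binding partners such as the Mxd proteins, which pair with Max, promoter sequence is shown for 1 gene of each family: the member with the smallest p among those with 1 annotated start. The sequences are from RefSeq on GRCm38.p6, cover the 250 bases before the start, and are written along the strand of the gene. Capitals mark matches to the motifs listed after them.
Srsf6 (chr2:162931258-162931507, plus strand): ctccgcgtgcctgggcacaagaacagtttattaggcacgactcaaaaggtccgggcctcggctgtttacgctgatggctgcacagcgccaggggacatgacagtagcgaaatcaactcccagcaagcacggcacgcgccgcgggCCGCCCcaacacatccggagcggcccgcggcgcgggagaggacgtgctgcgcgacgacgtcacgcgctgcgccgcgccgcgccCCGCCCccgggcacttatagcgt
Hnrnpu (chr1:178337816-178338065, minus strand): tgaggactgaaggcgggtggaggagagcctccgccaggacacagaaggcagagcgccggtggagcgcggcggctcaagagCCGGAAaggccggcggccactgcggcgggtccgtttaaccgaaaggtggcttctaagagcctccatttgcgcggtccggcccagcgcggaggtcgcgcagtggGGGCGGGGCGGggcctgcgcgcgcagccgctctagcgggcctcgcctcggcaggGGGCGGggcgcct
Sf3a3 (chr4:124714611-124714860, plus strand): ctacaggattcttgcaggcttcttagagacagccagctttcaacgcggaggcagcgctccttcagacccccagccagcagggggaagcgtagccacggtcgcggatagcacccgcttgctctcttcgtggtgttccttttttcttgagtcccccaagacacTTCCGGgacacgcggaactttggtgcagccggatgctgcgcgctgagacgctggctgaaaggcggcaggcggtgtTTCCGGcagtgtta
Snrpd3 (chr10:75517792-75518041, plus strand): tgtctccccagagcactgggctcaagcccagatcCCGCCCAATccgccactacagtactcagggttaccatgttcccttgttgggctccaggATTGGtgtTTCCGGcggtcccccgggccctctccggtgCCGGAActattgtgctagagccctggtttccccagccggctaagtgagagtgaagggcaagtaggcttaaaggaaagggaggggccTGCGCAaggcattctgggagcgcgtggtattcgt
The motifs were searched on both strands and were CACGTG (the E-box of Myc, Max and Mxd), CCGGAA (the core of ETS factor sites), CCAAT (bound by NF-Y), GGGCGG (the GC box), TGCGCA (part of the NRF1 site) and TATAAA (the TATA box). The E-box letters were in none of these 4 sequences. Hnrnpu held GGGCGG at -67, -62 and -13 from the start, the first pair sharing a base, and in Snrpd3 the GGGCGG match at -216 overlapped the CCAAT match at -212. Srsf6 held GGGCGG at -106 and -23. Sf3a3 held CCGGAA at -89 and -14, Snrpd3 held it at -150 and -120, and Hnrnpu at -170. Snrpd3 also held CCAAT at -158 and TGCGCA at -34.

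Windows of the same kind were found for 38 of the 44 members, with 52 windows because some genes have several starts, and were set beside 9435 windows of tested genes and all 32851 windows of the table. CACGTG was in 5 of the 52 windows (9.62%), against 8.60% of windows of tested genes and 6.02% of all windows. CCGGAA was in 24 of the 52 windows (46.2%), against 23.7% of windows of tested genes and 12.0% of all windows. By family, CCGGAA was in 8 of 13 SR protein windows, 7 of 25 hnRNP windows, 6 of 7 SF3 windows and 3 of 7 Snrp windows. GGGCGG was in 38 of the 52 windows (73.1%), against 58.1% of windows of tested genes and 32.7% of all windows. TGCGCA was in 13 of the 52 windows (25.0%), against 12.0% of windows of tested genes and 6.43% of all windows. CCAAT was in 23 of the 52 windows (44.2%), against 35.5% of windows of tested genes and 33.8% of all windows, and TATAAA was in 5 of the 52 (9.62%), against 6.12% of windows of tested genes and 12.4% of all windows. The median number of CpG dinucleotides was 22 in member windows, 16 in windows of tested genes and 6 in all windows. These matches are letters in a window, several windows of 1 gene overlap, and no binding was measured.

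If the fixed step of a library's values is taken as 1 read, which no label states, the libraries held between 9950979 and 13700630 reads in the listed genes. Sin3b itself was at 755.4 and 646.5 in the Sin3B KO libraries, against 1522 and 1825 in the WT libraries, so its reads were lower and not absent in the KO (log2 fold change -1.25, SE 0.22, limma, Benjamini-Hochberg adjusted p = 0.548). Of the sort gate, Kit and Ly6a (Sca-1) had mean levels at percentiles 99.8 and 90.1 of all genes, while Cd34 RNA was present at 5623 and 5133 in the KO and 6508 and 4945 in WT, and Flt3 (Flk2) at 830.4 and 354.0 in the KO and 1170 and 371.9 in WT, although the gate takes cells without these proteins. Markers of other blood cells were also read in all libraries and differed between the numbers: the summed level of 12 of 12 myeloid markers was 53955 and 24551 in the KO, against 78181 and 14798 in WT, that of 9 of 12 erythroid markers, 1 of them at 0 in a library, 22225 and 8266 in the KO, against 9956 and 6038 in WT, and that of 7 of 10 B lineage markers 5174 and 2465 in the KO, against 4601 and 2279 in WT. Megakaryocyte markers, 5 of 6 measured, did not follow this in the KO, with sums of 6858 and 7097, against 9573 and 5861 in WT. For 2 of 7 T and NK cell markers the sums were 2937 and 1710 in the KO, against 1952 and 1570 in WT. Those of 2 of 6 stroma and endothelium markers were 1968 and 322 in the KO, against 1060 and 559 in WT. By contrast, 11 of 11 HSC identity genes summed to 56018 and 70357 in the KO, against 61961 and 62705 in WT. The part of these markers in the results below was not tested. In bulk RNA a change in the share of a cell type and a change in RNA per cell cannot be told apart.

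As a set, the 44 genes were among the more abundant transcripts of these cells, although by count the Snrp family was not. Together the 44 genes took 1.16% and 1.16% of the listed signal in the Sin3B KO libraries, against 1.25% and 1.15% in the WT libraries. Their median normalised count was 1949, against 709 over all 9244 genes, and 18 of the 44 were in the top 10% of genes. The median of the Snrp genes was 637, and 3 of these 8 were above the median of all genes. No gene with a mean below 120.2 over the libraries was in the table, so relatives below that level were not analysed here. By current symbol 52 annotated protein-coding genes fit the rule, and 45 of them had library values. Those listed under an older symbol that the rule misses are not among the 44. The 7 not found, Hnrnpa1, Sf3b6, Snrpc, Snrpf, Snrpg, Snrpn and Srsf12, were not analysed here. The reason for their absence, a low level or another, was not tested.

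To set genes side by side, counts were divided by the kilobases of annotated exon (GENCODE vM21), which counts retained introns as exon and so understates genes that have long ones. On that scale, as a mean of the 4 libraries, Srsf2 led with 5169 per kb, followed by Srsf7 (3933), Hnrnpa2b1 (2439.6) and Snrpb (1622), and the ranges over the libraries of these neighbours in the order did not overlap. Sf3b2 followed (1173), and from there to the end of the order the range of each gene overlapped that of the next. The median member was at 427 per kb and the median Snrp gene at 300, against 154 over all genes. On this scale 9 of the 44 were in the top 10% of genes. The lowest were Hnrnpul1 (52.6), Hnrnpr (52.5) and Hnrnpa3 (39.9).

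**Figure D1:**
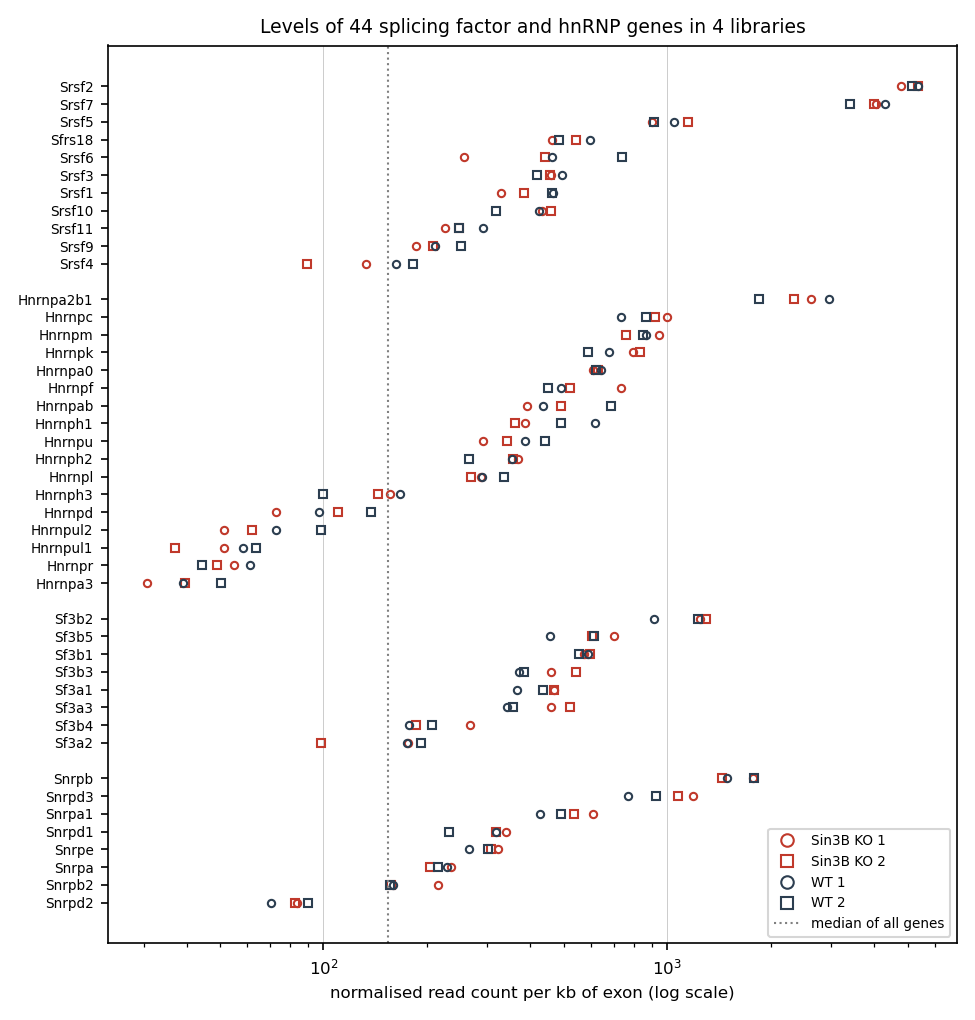
Normalised read count per kb of annotated exon (log axis) of the 44 genes in the Sin3B KO libraries (red) and the WT libraries (dark), circles for libraries numbered 1 and squares for those numbered 2, ordered within each family by the mean; the dotted line is the median of all genes, 154 per kb. Srsf2 and Srsf7 stand highest, and the points of a gene from both genotypes mostly lie close together.

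Between the genotypes, 0 of the 44 genes passed the test (limma, Benjamini-Hochberg adjusted p under 0.05 over all genes, smallest adjusted p = 0.548), as did 0% of all genes. At an unadjusted p under 0.05 there were 4 members, Sf3a3 higher and Hnrnph1, Srsf6 and Srsf4 lower in Sin3B KO cells. The 1 that was higher compares with 4.97% of all genes and the 3 that were lower with 3.95%, and together they are 9.09% of the members, close to the 8.91% of all genes (824 genes). That count was 7 without WT replicate 1 (15.9%, against 16.1% of all genes) and 5 without WT replicate 2 (11.4%, against 12.9%). It was 2 when Sin3B KO 1 was left out (4.55%, against 3.30%) and 1 when Sin3B KO 2 was (2.27%, against 5.95%). Scaled by total signal, upper quartile or TMM (trimmed mean of M values), 6 members were at an unadjusted p under 0.05 by limma. They are 13.6% of the members, against 9.36%, 9.53% and 9.12% of all genes in that order. The authors' deposited table calls 0 of the 44 at an adjusted p under 0.05, against 0.325% of the genes with values, and 5 at an unadjusted p under 0.05, Hnrnph1, Srsf6, Sf3b3, Sf3a3 and Snrpd3, against 9.76%. The genotypes did not overlap in 13 members with the higher values in the KO (29.5%, against 24.7% of all genes) and in 9 with the lower values in the KO (20.5%, against 19.4%). Other scalings moved this split together with that of all genes. Scaled by total signal there were 7 higher and 14 lower (15.9% and 31.8%, against 18.1% and 25.4% of all genes), and scaled by upper quartile 6 and 14 (13.6% and 31.8%, against 16.1% and 27.3%). Relative to the median of all genes, 22 of the 44 fold changes were above it under each of these scalings and as deposited. The median log2 fold change of the 44 was 0.026, that of all genes 0.033, and the mean of the 44 was -0.018. The 95% confidence interval of a member had, on the log2 scale, a median half-width of 0.47.

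The families leaned different ways around that middle. In the SF3 and Snrp families 13 of 16 genes had a log2 fold change above 0 (81.3%, against 53.4% of all genes), while in the SR protein and hnRNP families 10 of 28 did and 18 were below 0, where 46.6% of all genes lie. Groups that do not overlap were higher in the KO for 8 of 16 SF3 and Snrp genes and lower for 0 of them, against 24.7% and 19.4% of all genes. Among SR protein and hnRNP genes they were higher for 5 and lower for 9 (17.9% and 32.1%). With a mean of at least 500, they were higher for 7 of 11 SF3 and Snrp genes (63.6%) and lower for 0. For SR protein and hnRNP genes at that level they were higher for 5 and lower for 7 of 24 (20.8% and 29.2%). Of all genes at that level 31.8% were higher and 14.4% lower. Scaled by upper quartile, which moved all genes toward lower values in the KO, the SF3 and Snrp genes had 4 higher and 1 lower (25.0% and 6.25%) and the SR protein and hnRNP genes 2 and 13 (7.14% and 46.4%), against 16.1% and 27.3% of all genes. The SR protein median was -0.018 without WT replicate 1, -0.22 without Sin3B KO replicate 2, and 0.0097 when the KO library numbered 1 was left out. The hnRNP median was -0.12 without WT replicate 2, -0.086 without Sin3B KO replicate 1 and -0.0091 without WT replicate 1, and leaving out the KO library numbered 2 gave -0.046. With the trend of fold change with exon length removed, 7 of 8 SF3 genes were above the median of all genes, the same number as before. Of the Snrp genes 4 of 8 then were, against 6 of 8 before. The numbers were 2 of 11 for SR protein and 8 of 17 for hnRNP genes, against 3 and 6 before. Families were not tested, and the differences between them are descriptions.

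**Figure D2:**
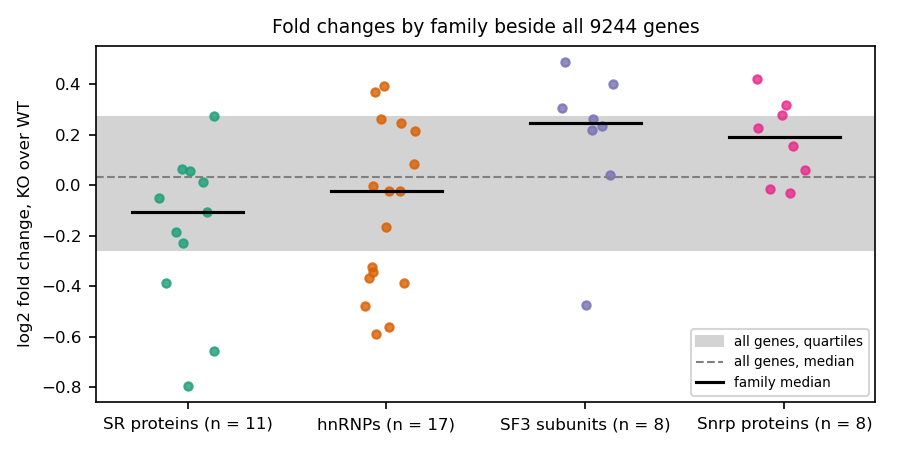
Log2 fold changes of Sin3B KO over WT (vertical axis) for the genes of each family (points, spread sideways at random), with the family median as a black bar, beside the quartiles (grey band, -0.26 to 0.27) and median (dashed line) of all 9244 genes. The SF3 and Snrp medians, 0.25 and 0.19, lie above the median of all genes and the SR protein and hnRNP medians, -0.10 and -0.023, below it, all within the grey band.

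Among the SR proteins, 0 of 11 passed, 4 had a log2 fold change above 0 and 7 below, and the median was -0.10. Srsf6 (ENSMUSG00000016921), a splicing activator with a long arginine and serine rich tail, had 1234 and 2124 in the Sin3B KO libraries, against 2221 and 3556 in the WT libraries. The KO values were both below the WT values, though Sin3B KO 2 lay close to WT 1, and each genotype's libraries differed nearly as much as the genotypes. The means were 1679 ± 629 in Sin3B KO and 2888 ± 944 in WT cells (SD, n = 2 each), a log2 fold change of -0.80 with SE 0.31 (limma, Benjamini-Hochberg adjusted p = 0.548). Its close relative Srsf4 (ENSMUSG00000028911) had 473 and 319 in the Sin3B KO libraries, against 579 and 649.8 in the WT libraries. Again both KO values were the lower ones, with the lowest in Sin3B KO 2 (log2 fold change -0.66, SE 0.29, adjusted p = 0.548 by limma). Srsf1 (ENSMUSG00000018379), the prototype of the family and an activator of many exons, had 1873 and 2185 in the Sin3B KO libraries, against 2651 and 2632 in the WT libraries. The WT libraries were nearly equal and both KO libraries were below them (log2 fold change -0.38, SE 0.19, adjusted p = 0.550 by limma).

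Srsf10 (ENSMUSG00000028676), which represses splicing when it is dephosphorylated, was the SR protein gene with the highest fold change, at 3028 and 3204 in the Sin3B KO libraries, against 2976 and 2229 in the WT libraries. The KO values were above the WT values, but Sin3B KO 1 exceeded WT 1 by little (log2 fold change 0.27, SE 0.21, adjusted p = 0.648 by limma). The most abundant, Srsf2 (ENSMUSG00000034120), had 14188 and 15891 in the Sin3B KO libraries, against 15873 and 15207 in the WT libraries. Its groups overlapped, and the log2 fold change of -0.049 (SE 0.19) had a 95% confidence interval of -0.47 to 0.38 (adjusted p = 0.934 by limma). Srsf7 (ENSMUSG00000024097), which like Srsf3 also serves in mRNA export, had 14338 and 14119 in the Sin3B KO libraries, against 15299 and 12094 in the WT libraries. WT 1 and WT 2 held its highest and lowest value and the KO libraries lay between them (log2 fold change 0.065, SE 0.20, interval -0.39 to 0.52).

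The remaining SR protein genes had smaller fold changes than Srsf10. Srsf3 was at 3626 and 3612 in the KO and 3892 and 3305 in WT (log2 fold change 0.013), and Srsf5 at 3594 and 4581 in the KO and 4174 and 3646 in WT (0.057). Srsf11 was at 1903 and 2099 in the KO and 2464 and 2093 in WT (-0.18). Sfrs18, now named Pnisr and an SR-related protein, was at 4707 and 5511 in the KO and 6058 and 4947 in WT (-0.10). In these 4 genes the genotypes overlapped. Srsf9, the least counted, was at 308 and 345 in the KO and 350.0 and 415 in WT (-0.23), with both KO values lower by little.

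A transcript annotated as a target of nonsense-mediated decay exists for 10 of the 11 SR protein genes, all but Srsf10, in GENCODE vM21. It exists for 7 of 17 hnRNP genes, 1 of 8 SF3 genes (Sf3b1) and 4 of 8 Snrp genes, and for 31.2% of all genes tested. For a gene with such a transcript, the deposited gene counts would add up RNAs of both fates and do not tell them apart. Whether such RNAs were present in these libraries was not tested.

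Among the hnRNPs, 0 of 17 passed, 6 had a log2 fold change above 0 and 11 below, and the median was -0.023. Hnrnph1 (ENSMUSG00000007850), which binds runs of G near splice sites, had 2246 and 2108 in the Sin3B KO libraries, against 3590.3 and 2867 in the WT libraries. Both KO values were clearly below both WT values, and the gap between the genotypes was wider than that within either. The means were 2177 ± 97.6 in Sin3B KO and 3229 ± 511 in WT cells (SD, n = 2 each), a 1.48-fold lower level in the KO (log2 fold change -0.56, SE 0.20, adjusted p = 0.548 by limma with Benjamini-Hochberg adjustment). Its paralogues went differently. Hnrnph2, at 1608 and 1559.7 in the KO and 1540.3 and 1158 in WT (log2 fold change 0.25), and Hnrnpf, at 2237 and 1585 in the KO and 1499 and 1372 in WT (0.39), had both KO values above both WT values, while Hnrnph3, at 491 and 455 in the KO and 527 and 315 in WT (0.21), overlapped. How reads shared by such close paralogues were counted is not given in the sources used here, which makes the split between them uncertain.

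The U-type hnRNPs, which bind RNA and chromatin, were all lower in both KO libraries. Hnrnpu (ENSMUSG00000039630), the nuclear scaffold protein of the group, had 3374 and 3970.2 in the Sin3B KO libraries, against 4476 and 5127 in the WT libraries (log2 fold change -0.39, SE 0.19, adjusted p = 0.550 by limma). Hnrnpul2 (ENSMUSG00000071659) had 364 and 439.6 in the Sin3B KO libraries, against 518 and 699 in the WT libraries (log2 fold change -0.59, SE 0.28, adjusted p = 0.550 by limma). Hnrnpul1 was at 446 and 321 in the KO and 505 and 549.9 in WT (log2 fold change -0.48). In none of these 3 genes did the genotypes overlap, and in none did the difference pass. Of all genes, 19.4% were lower in the KO without overlap.

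Hnrnpk (ENSMUSG00000021546), a KH-domain protein that binds C-rich sequence, was higher in both KO libraries. It had 5148 and 5398 in the Sin3B KO libraries, against 4374 and 3805 in the WT libraries (log2 fold change 0.37, SE 0.18, adjusted p = 0.550 by limma). Hnrnpc (ENSMUSG00000060373), which packages nascent RNA through U tracts, had 4301 and 3992 in the Sin3B KO libraries, against 3167 and 3758 in the WT libraries (log2 fold change 0.26, SE 0.19, adjusted p = 0.632 by limma). Its groups were apart as well, with WT 1 the lowest. The most abundant hnRNP, Hnrnpa2b1 (ENSMUSG00000004980), had 17233 and 15414 in the Sin3B KO libraries, against 19399 and 12204 in the WT libraries. The WT libraries spanned the KO libraries on both sides (log2 fold change 0.083, SE 0.25, interval -0.48 to 0.64).

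Other hnRNP genes had fold changes at or below 0. Hnrnpd, a binder of AU-rich elements, was at 535 and 813 in the KO and 716 and 1009.9 in WT (log2 fold change -0.37), and Hnrnpab at 1084 and 1361 in the KO and 1207 and 1914 in WT (-0.32). Hnrnpa3 was at 165 and 214 in the KO and 211 and 271 in WT (-0.34). In these 3 genes the library numbered 1 was below that numbered 2 in each genotype, and the genotypes overlapped. Hnrnpl, which binds CA repeats, was at 1711 and 1603 in the KO and 1726 and 1997 in WT (-0.17), the KO libraries lower by little. Hnrnpm was at 7507 and 6049.8 in the KO and 6914 and 6782 in WT (-0.023), Hnrnpa0 at 1632 and 1688 in the KO and 1714 and 1657 in WT (-0.022) and Hnrnpr at 1222 and 1091 in the KO and 1360.2 and 985 in WT (-0.0041), all 3 overlapping.

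**Figure D3:**
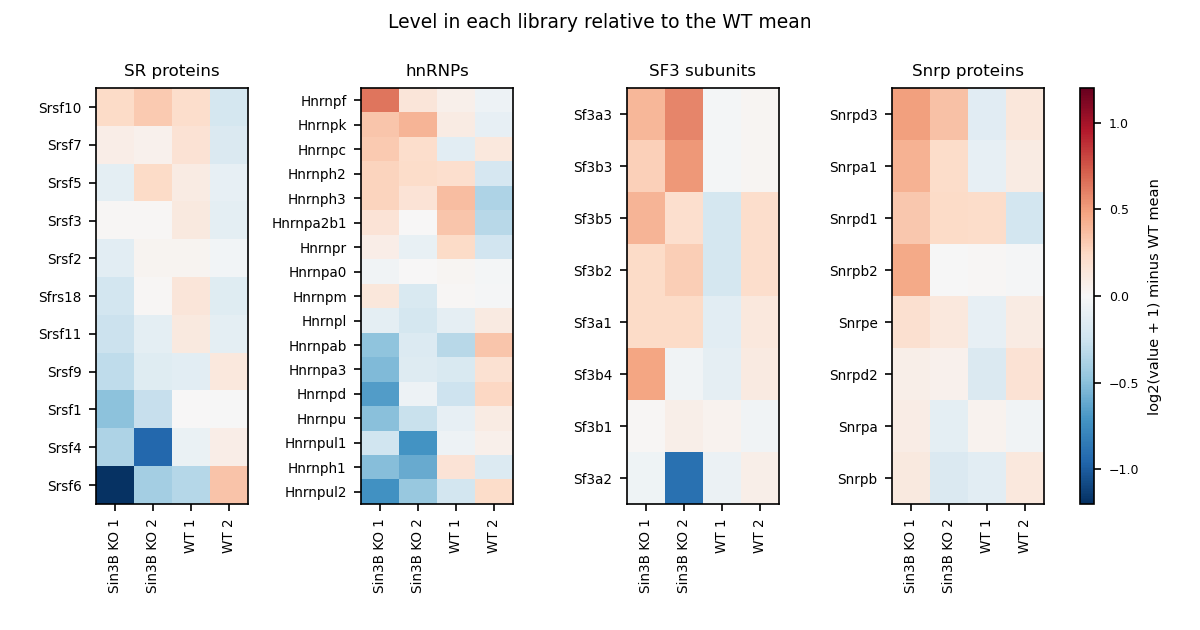
Level of each of the 44 genes in each library, as log2(value + 1) minus the mean of the WT libraries (colour, red above and blue below), by family and in order of the fold change, with the Sin3B KO libraries in the left columns of each panel and the WT libraries in the right. Srsf6 in Sin3B KO 1 and Sf3a2 and Srsf4 in Sin3B KO 2 are the darkest blue, and most SF3 and Snrp genes are pale to mid red in the KO columns.

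In the SF3 family 0 of 8 passed, 7 had a log2 fold change above 0 and the median was 0.25, and the summed level was 27926 and 28886 in the Sin3B KO libraries, against 22731 and 25841 in the WT libraries. Sf3a3 (ENSMUSG00000028902), a subunit of SF3a, had 1277 and 1454 in the Sin3B KO libraries, against 953 and 988 in the WT libraries. The libraries of each genotype were close together and the KO values higher. The means of Sf3a3 were 1366 ± 125 in Sin3B KO and 971 ± 24.7 in WT cells (SD, n = 2 each) (log2 fold change 0.49, SE 0.21, adjusted p = 0.548 by limma). Sf3b3 (ENSMUSG00000033732), a large scaffold subunit of SF3b, had 5007 and 5914 in the Sin3B KO libraries, against 4041 and 4195 in the WT libraries. Here too the gap between genotypes exceeded that within each. The means of Sf3b3 were 5461 ± 641 in Sin3B KO and 4118 ± 109 in WT cells (SD, n = 2 each) (log2 fold change 0.40, SE 0.19, adjusted p = 0.549 by limma). Among SF3 genes these were the only ones whose genotype difference was larger than both gaps between libraries of a genotype. Over all members 13 of 44 met that description, and over all genes 30.2%.

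Sf3b1 (ENSMUSG00000025982), the subunit that clasps the branch point, had similar values in all libraries. They were 6514 and 6790.0 in the Sin3B KO libraries, against 6665 and 6279 in the WT libraries (log2 fold change 0.040, SE 0.18, interval -0.37 to 0.45). Sf3b2 (ENSMUSG00000024853), which lies beside Sf3b4 in SF3b and was the most abundant SF3 gene per kb, had 8509.8 and 8854 in the Sin3B KO libraries, against 6237 and 8394 in the WT libraries (log2 fold change 0.26, SE 0.21). Sf3b5 (ENSMUSG00000078348), the smallest SF3b subunit measured, had 2690.2 and 2327 in the Sin3B KO libraries, against 1746 and 2348 in the WT libraries (log2 fold change 0.31, SE 0.22). In both genes WT 1 was the low library while WT 2 reached or neared the KO level. Sf3a1 was at 2880.5 and 2881 in the KO and 2242 and 2677 in WT (log2 fold change 0.23), and Sf3b4 at 578 and 403 in the KO and 384 and 447 in WT (0.22). Sf3a2 (ENSMUSG00000020211) alone of the family had a lower mean in the KO, at 469 and 262 in the KO and 464 and 512 in WT (log2 fold change -0.47, SE 0.33). That difference rests on Sin3B KO 2, since Sin3B KO 1 lay between the WT libraries.

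The SF3 and Snrp differences were larger between the libraries numbered 1 than between those numbered 2, although the labels do not say what the number marks. The SF3 median of Sin3B KO 1 over WT 1 was 0.39 and that of Sin3B KO 2 over WT 2 0.091 on the log2 scale, and for Snrp genes these were 0.27 and 0.020. Over all genes they were 0.036 and 0.031. When WT replicate 1 was left out the SF3 median was 0.099, and when WT replicate 2 was left out it was 0.40. Leaving out Sin3B KO replicate 1 gave a Snrp median of 0.086. The summed level of 16 DNA replication genes was 61684 and 47662 in the KO, against 38025 and 41606 in WT, and that of 14 mitotic genes 14339.9 and 9683 in the KO, against 10972 and 7084 in WT. Both sums were highest in Sin3B KO 1, as was the summed Snrp level, while the summed SF3 level was highest in Sin3B KO 2 and lowest in WT 1. The part of these cell cycle genes in the SF3 and Snrp levels was not tested.

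In the Snrp family 0 of 8 passed, 6 had a log2 fold change above 0 and 2 below, and the median was 0.19. Snrpd3 (ENSMUSG00000020180), a core protein of the Sm ring, had 4092 and 3700.0 in the Sin3B KO libraries, against 2647 and 3182 in the WT libraries. Both KO values were above both WT values, with WT 1 the lowest. The means of Snrpd3 were 3896 ± 278 in Sin3B KO and 2915 ± 378 in WT cells (SD, n = 2 each) (log2 fold change 0.42, SE 0.19, adjusted p = 0.548 by limma). Other Sm proteins varied: Snrpd1 (ENSMUSG00000002477) had 698 and 651 in the Sin3B KO libraries, against 649.9 and 476 in the WT libraries (log2 fold change 0.28, SE 0.26). Snrpe was at 442 and 422 in the KO and 363 and 413 in WT (log2 fold change 0.16), higher by little in the KO, and Snrpd2, the lowest member by count, at 219 and 216 in the KO and 185 and 235 in WT (0.060). Snrpb (ENSMUSG00000027404), the most abundant Snrp gene per kb, had 3503 and 2848 in the Sin3B KO libraries, against 2942 and 3528 in the WT libraries. Its groups overlapped (log2 fold change -0.028, SE 0.20, interval -0.49 to 0.44), and reads shared with its near-identical paralogue Snrpn could have been split.

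Proteins specific to 1 snRNP were next. Snrpa1 (ENSMUSG00000030512), of the U2 snRNP, had 1934 and 1693 in the Sin3B KO libraries, against 1353 and 1554 in the WT libraries. The groups did not overlap (log2 fold change 0.32, SE 0.20, adjusted p = 0.599 by limma). Its U2 partner Snrpb2 (ENSMUSG00000008333) had 616 and 450.3 in the Sin3B KO libraries, against 454 and 447 in the WT libraries. Sin3B KO 1 stood apart from the other 3 libraries, which were alike (log2 fold change 0.23, SE 0.27). Snrpa, of the U1 snRNP, was at 699 and 605 in the KO and 678 and 637 in WT (log2 fold change -0.016), with overlapping groups.

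**Figure D4:**
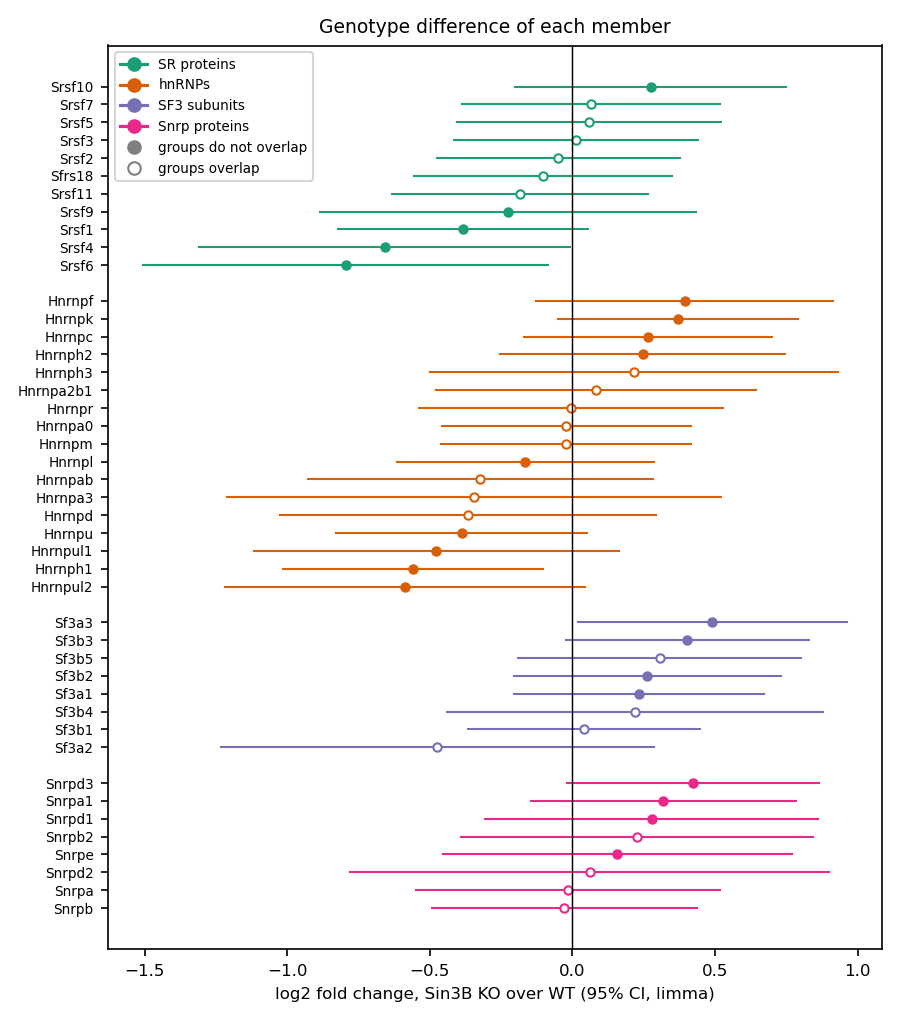
Log2 fold change of Sin3B KO over WT (horizontal axis) with its 95% confidence interval from limma for each of the 44 genes, by family and in order of size; filled points mark genes whose KO and WT values do not overlap. The intervals of 40 genes include 0, and those of Sf3a3, Hnrnph1, Srsf6 and Srsf4 do not, before adjustment over all genes.

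Other splicing genes, in 6 lists that hold 173 measured genes, had 0 that passed, 105 above 0 and 68 below, and a median log2 fold change of 0.066. The list nearest to the SF3 and Snrp families in direction was that of the U4/U6.U5 tri-snRNP, the Prpf19 complex and the helicases of the catalytic steps, with 35 of 44 genes above 0 and a median of 0.27. Groups that do not overlap were higher in the KO for 23 of these genes (52.3%) and lower for 4 (9.09%), against 24.7% and 19.4% of all genes. Its smallest p belonged to Dhx38, a helicase of the second catalytic step, at 1262 and 1339 in the KO and 741 and 819.9 in WT (log2 fold change 0.74), and to Lsm3, of the ring on U6 snRNA, at 2667 and 2263 in the KO and 1461 and 1835 in WT (0.59). In both genes both KO values were the higher ones.

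For the partners of U1 and U2, 19 of 31 genes were above 0 and the median was 0.11. Phf5a, which sits in SF3b beside Sf3b1, was at 1812 and 1403 in the KO and 976 and 1157 in WT (log2 fold change 0.58), and Rbm22 at 2654 and 2691 in the KO and 1842 and 2094 in WT (0.44). The list of snRNP assembly and the exon junction complex had 17 of 23 genes above 0 and a median of 0.16. Gemin4, of the SMN complex that loads Sm rings, was at 1614 and 1851 in the KO and 1287 and 1029 in WT (0.59), and Strap, another protein of that complex, at 366 and 431 in the KO and 668 and 659 in WT (-0.74). Their groups were apart in opposite directions.

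The other lists had medians nearer to 0. The hnRNP-like and other regulators had 14 of 38 genes above 0 and a median of -0.095. Mbnl3, of the muscleblind family, was at 7614 and 6657 in the KO and 4925 and 4461 in WT (0.60), and the paraspeckle protein Sfpq at 2610.4 and 2926 in the KO and 4619.9 and 3706 in WT (-0.58). The SR-related proteins with the SR protein kinases and importer had 14 of 25 genes above 0 and a median of 0.027. Srrm2, a large SR-related protein of nuclear speckles, was at 3751 and 3284 in the KO and 5901 and 4326 in WT (-0.53), and Tnpo3, which imports SR proteins into the nucleus, at 3180.3 and 3213 in the KO and 2625 and 2324 in WT (0.37). Of the minor spliceosome, 6 of 12 genes were above 0 and the median was -0.035, with Armc7 at 776 and 1076 in the KO and 519 and 684 in WT (0.62) and Zrsr1 at 189 and 94.5 in the KO and 201 and 296 in WT (-0.86).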

How the data were processed

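RNA was sequenced in 2 Sin3B KO and 2 WT libraries of sorted HSCs, which per the labels were made from polyA RNA by the SMARTer low-input method. Bowtie, DESeq and the build mm9 are named, without versions, in the submitters' processing notes. Which tool counted the reads is not given in the sources used here, nor is the annotation. The authors deposited a normalised signal for each gene and library, and in every library all values were multiples of a fixed step, within 0.01 of that step, as counts divided by a size factor would be. Per the file headers, the deposited comparison holds a log2 fold change, its error, a test score and the p-value before and after adjustment. Of 9796 genes, 552 had no library values and were left out.

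Values were analysed as log2(value + 1) with limma 3.58.1 in R 4.3.3, Sin3B KO minus WT, with a trended prior, over the 9244 genes that reached 1 in 2 libraries. P-values were adjusted by Benjamini-Hochberg over all of these genes. Fold changes are on this scale, which understates those of low genes. The prior gave 6.62 degrees of freedom beside 2 of the libraries. Exon lengths and transcript types came from GENCODE vM21 (GRCm38) by gene identifier or name, for 9177 genes and all 44 members. The only coordinates printed are those of the RefSeq promoter windows, on GRCm38.p6 and not on the authors' mm9. Whole reads were not accepted as recovered when these steps were checked, so no count model was run. Every member is named with its values. An SE was given for the 4 smallest p of each family, its 2 most abundant genes per kb, Srsf2 and Sf3b1, and the 2 smallest p of each other splicing list are named. The members and lists were chosen with earlier results of these data known. Other pseudocounts, a filter on low values, scalings, a term for the replicate number, a length correction and leaving out each library were tried.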

Additional observations from a re-analysis of the deposited data

How the results depend on the processing

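Under each alternative with a test (the length correction has none), 0 members passed (limma, Benjamini-Hochberg), with a smallest member adjusted p from 0.0871 with the replicate block to 0.997 without Sin3B KO replicate 1. Scaling by total signal gave a median log2 fold change of -0.059 for the members, -0.19 for SR protein and -0.11 for hnRNP genes, with 7 members higher and 14 lower without overlap (18.1% and 25.4% of all genes under that scaling). Scaling by upper quartile, which shifted the median of all genes by -0.11, gave -0.087 for the members, -0.22 for SR protein, -0.14 for hnRNP, 0.13 for SF3 and 0.078 for Snrp genes, with 6 higher and 14 lower (16.1% and 27.3% of all genes). TMM scaling gave -0.022 for the members and -0.072 for hnRNP genes, and removing the trend with exon length gave 0.059 for the members and -0.071 for hnRNP genes. Relative to the median of all genes the family medians under these 3 scalings were -0.14 for SR protein, -0.056 for hnRNP, 0.21 for SF3 and 0.16 for Snrp genes. Over all genes the fold change fell with exon length (Spearman rho -0.24). Snrp genes had a median exon length of 2737.5 bases, against 4655 over all genes. With the length trend removed, the family medians relative to all genes were -0.12, -0.13, 0.24 and 0.057 in the same order.

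Leaving out 1 library at a time gave medians of -0.043 to 0.077 for the members, -0.22 to 0.0097 for SR protein, -0.12 to -0.0091 for hnRNP, 0.099 to 0.40 for SF3 and 0.086 to 0.26 for Snrp genes, with 1 to 7 members at an unadjusted p under 0.05 and 0 to 1 genes past the threshold; a lone library was assumed to vary like the other group. The causes were not tested. Libraries with the same number deviated together, with a correlation of 0.46 over all genes and 0.22 over the 44 members. However, there are only 2 pairs, and the labels do not say what the number marks. With the replicate block 27 genes passed, and 8 members had an unadjusted p under 0.05 (18.2%, against 17.0% of all genes). Some fold changes near 0 turned sign. Under scaling by total signal, which moves all genes alike, Hnrnpa2b1 was at -0.0020, Sf3b1 at -0.045 and Srsf7 at -0.020, under upper quartile scaling at -0.031, -0.074 and -0.049 in the same order, and Sf3b1 under TMM scaling at -0.0085. Leaving out 1 library at a time, the fold change ranged from -0.25 to 0.42 for Hnrnpa2b1, from -0.0031 to 0.083 for Sf3b1, from -0.10 to 0.23 for Srsf7, from -0.18 to 0.12 for Snrpb, from -0.00020 to 0.45 for Snrpb2 and from -0.13 to 0.033 for Srsf2. The 2 count models planned on recovered reads were not run, and counts without overlap were recomputed for the filter and scalings alone. The intervals given are before adjustment, and with 2 libraries a genotype even differences larger than their half-widths did not pass. Sin3b itself, at -1.25 with an interval of -1.75 to -0.75, had an adjusted p of 0.548 (limma, Benjamini-Hochberg). A member that did not pass may therefore still differ between the genotypes.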

Other observations

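The libraries numbered 1 and 2 also differed from each other within the genotypes. In 8 of the 44 members both libraries numbered 1 lay above both numbered 2 (17.1% of all genes did so), and in 3 below (18.8% of all genes). The 8 were 2 SR protein, 4 hnRNP and 2 Snrp genes, the 3 were hnRNP genes, and no SF3 gene was among them. The median absolute log2 gap between libraries of a genotype was 0.18 in Sin3B KO and 0.24 in WT cells for the members, against 0.24 in Sin3B KO and 0.32 in WT cells over all genes.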
